A study of Mus musculus with 37 samples.

Results

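The comparison concerned the livers of CD1 mouse dams given HFPO-DA, a short-chain perfluoroalkyl ether acid, at the highest dose and at the dose below it. All dams of these dose groups in the count table were taken, 4 at 5 mg/kg and 4 at 0.5 mg/kg, which makes 8 of the 37 mice of the series. RNA was taken from fixed, paraffin-embedded liver sections and read as TempO-Seq probe counts, in which each probe is a short sequence of a known gene. Dams received 53 to 65 daily oral doses in deionized water, from 14 days before mating until lactation day 20 or 21, and were about 11 weeks old at the first dose. The reference groups were 5 vehicle dams given water alone, with 5 dams at 0.1 mg/kg shown for context. Sires at the same doses were not lactating and were about 6 weeks old at the first dose. They received 84 or 85 doses, starting 70 days before mating. These sires shared the estimate of spread, supplied a second choice of genes and were compared with the dams. CD1 is an outbred stock, all dams had carried and nursed litters, and liver sections hold every cell type of the organ. In such bulk samples, fewer cells of a type and less RNA per cell cannot be told apart. One dam of each of the 2 dose groups was left out by the study for low depth.

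The question was which genes kept climbing or falling between 0.5 and 5 mg/kg and which had already levelled off. The last step means 5 against 0.5 mg/kg, and the first step means 0.5 mg/kg against vehicle. The last step is a 10-fold rise in dose and the first starts from no dose, so the sizes of both steps are not slopes per unit of dose. HFPO-DA is studied as an activator of PPARα, a nuclear receptor that pairs with RXR and, when a ligand such as a fatty acid binds, raises genes for the uptake, transport and oxidation of fatty acids in hepatocytes. Peroxisomes shorten very long fatty acids and mitochondria burn the rest, while the Cyp4a enzymes oxidise the far end of the chain. A second set of hepatocyte genes is set by sex, largely through the pulsing pattern of growth hormone, and includes many cytochrome P450s.

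Total counts were 7952605 to 11262409 in the 8 dams, with 16984 to 19463 probes detected. The log2 values of dams within a dose group correlated at 0.8905 to 0.9346 at 0.5 mg/kg and at 0.8894 to 0.9065 at 5 mg/kg. The Y-linked gene Ddx3y had at most 2 counts in any dam and at least 31 in any sire. Levels are given as CPM, the count scaled to a common library size with edgeR's TMM factors, dams are numbered 1 to 4 within a group and listed in that order, and ± is the SD with n = 4 for a level and the standard error for a log2 fold change. Where a gene had several probes, the probe with most counts is given unless stated. Because probes differ in efficiency, CPM values of different genes are not compared as amounts.

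In the last step 219 genes passed an adjusted p of 0.10, which is 1.68% of the 13004 genes tested. Of these, 93 were raised (0.715% of the genes tested) and 126 were lowered (0.969%). Among the lists examined, mitochondrial β-oxidation held the most raised genes, 7 of 18 tested, and xenobiotic P450s held the most lowered genes, 12 of 39. In the first step 18 genes were called (0.138%), of which 17 were raised (0.131%) and 1 was lowered (0.00769%). The count of raised genes in the last step was 48 without 0.5 mg/kg dam 1, 59 without 0.5 mg/kg dam 4 and 57 without 5 mg/kg dam 3. The count of lowered genes was 77 without 0.5 mg/kg dam 1, 80 without 0.5 mg/kg dam 4, 77 without 5 mg/kg dam 2 and 67 without 5 mg/kg dam 3.

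Most genes that had moved by 0.5 mg/kg went on moving in the reported fit. Of the 18 genes called in the first step, 13 were called again in the last step, all upward. They included Ehhadh, Acaa1a, Acaa1b and Eci2 of peroxisomal β-oxidation, the peroxisome division factor Pex11a, Cyp4a12a, Cyp4a31, the acyl-CoA thioesterase Acot1, the liver fatty acid-binding protein Fabp1, the retinol saturase Retsat, Serinc2 and Fam213a. In all 4 dams at 5 mg/kg the level was above that of all 4 dams at 0.5 mg/kg for 14 of the 17 raised genes, against 4.46% of all genes tested. The median log2 fold change of the 17 raised genes was 1.68 in the first step, which chose them, and 1.52 in the last. The first-step call of Eci2 had an adjusted p of 0.113 to 0.287 without vehicle dams 2, 3 or 4 or 0.5 mg/kg dams 1 or 2. Both steps share the dams at 0.5 mg/kg, so a high or low value there moves them in opposite directions. In DESeq2 37 of 66 genes called in the first step were called again in the last, and in females alone 31 of 61.

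**Figure D1:**
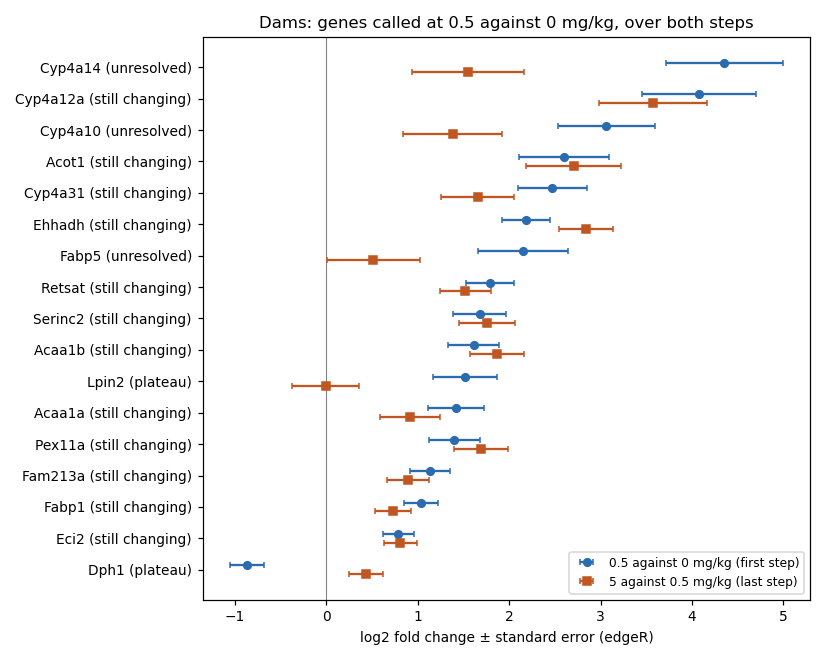
log2 fold change with its standard error (horizontal axis) for 17 of the 18 genes called at 0.5 against 0 mg/kg in dams (rows, with their class), in the first step (circles) and the last step (squares), for the probe with the smallest p of the first step. Of the raised genes shown, Lpin2 lies at 0 in the last step and the others above it.

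Ehhadh, the bifunctional enzyme of peroxisomal β-oxidation, had the smallest adjusted p in the last step among the genes called in the first. Its CPM were 1550, 2834, 1784 and 1445 at 0.5 mg/kg and 12693, 11960, 17070 and 12736 at 5 mg/kg, against a mean of 418 in vehicle dams. The groups did not overlap, and the lowest dam at 5 mg/kg was more than 4 times the highest at 0.5 mg/kg. The log2 fold change was 2.84 ± 0.29 in the last step (adjusted p = 1.07e-08) and 2.19 ± 0.26 in the first (adjusted p = 4.2e-06). The thiolase Acaa1b had 17.4, 44.1, 18.3 and 25.9 CPM at 0.5 mg/kg and 79.6, 87.3, 115 and 104 CPM at 5 mg/kg, again without overlap, for a last step of 1.87 ± 0.30 (adjusted p = 0.000108).

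Pex11a had 31.5, 41.0, 43.7 and 50.3 CPM at 0.5 mg/kg and 125, 112, 192 and 111 CPM at 5 mg/kg, all higher. Its last step was 1.70 ± 0.30 (adjusted p = 0.000477), and its first-step call had an adjusted p of 0.101 without 0.5 mg/kg dam 4. For the related thiolase Acaa1a the main probe had 671, 1969, 485 and 653 CPM at 0.5 mg/kg and 1502, 1598, 2031 and 1999 CPM at 5 mg/kg. The overlap came from 0.5 mg/kg dam 2, and this probe's last step of 0.92 ± 0.33 had an adjusted p of 0.307. Without that dam the last step was 1.55 with an adjusted p of 0.00363, and the first step was 0.77 with an adjusted p of 1. The first-step call of Acaa1a also had an adjusted p of 0.107 to 0.165 without vehicle dams 3, 4 or 5. The call of Acaa1a in the last step rested on a second, weaker probe, with a log2 fold change of 0.85 and an adjusted p of 0.0315. Acaa1a and Acaa1b are close copies, as are the Cyp4a genes and Acot1 with Acot2, and probes may share reads between such copies.

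Of 22 peroxisomal β-oxidation genes tested, 5 were raised in the last step, none was lowered and 17 did not pass. Over all genes tested by the probe with most counts, 0.661% were raised and 0.884% were lowered. The list's median log2 fold change was 0.80 in the last step and 0.36 in the first, beside 0.015 and -0.034 over all genes tested. The call of Hsd17b4, the second bifunctional enzyme of the pathway, was 0.67 ± 0.16 (adjusted p = 0.0153) and had an adjusted p of 0.119 without 0.5 mg/kg dam 1. Of 24 peroxins and peroxisomal transporters, only Pex11a was called, and the list's median was 0.02.

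The Cyp4a enzymes hydroxylate fatty acids at their far end, and Cyp4a14, Cyp4a12a and Cyp4a10 had the 3 largest log2 fold changes among genes called in the first step. Cyp4a14 went from a mean of 17.7 CPM in vehicle dams to 342, 471, 329 and 311 CPM at 0.5 mg/kg and 946, 997, 1271 and 1044 CPM at 5 mg/kg. The dams at 5 mg/kg were all higher than those at 0.5 mg/kg, yet the last step of 1.55 ± 0.62 did not pass (adjusted p = 0.417), while the first was 4.36 ± 0.64 (adjusted p = 0.000173). Cyp4a10 had 614, 773, 489 and 680 CPM at 0.5 mg/kg and 2208, 2158, 1756 and 2069 CPM at 5 mg/kg. Its groups were also apart, with a last step of 1.68 ± 0.54 (adjusted p = 0.184). In a fit of females alone the adjusted p of the last step was 0.00128 for Cyp4a10 and 0.0105 for Cyp4a14, and with no filter on low counts it was 0.00518 and 0.059.

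Cyp4a31 passed in both steps, from 636, 752, 426 and 573 CPM at 0.5 mg/kg to 1850, 1970, 1861 and 1840 CPM at 5 mg/kg (1.66 ± 0.40, adjusted p = 0.0192). Cyp4a12a, known as the male form, was at 0.972 CPM in vehicle dams, at 1.79, 8.41, 52.6 and 2.76 CPM at 0.5 mg/kg and at 270, 231, 210 and 79.1 CPM at 5 mg/kg. Its values at 0.5 mg/kg were low in 3 dams and high in dam 3, and the first step was 2.14 with an adjusted p of 0.121 without that dam. The last step was 3.58 ± 0.59 (adjusted p = 0.000228). Cyp4a12b was at 0 in 3 dams and at 2.14 CPM in dam 3 at 0.5 mg/kg, and at 12.5, 10.7, 11.6 and 8.51 CPM at 5 mg/kg (4.21 ± 0.85, adjusted p = 0.00295). Across 13 Cyp4 genes tested, 4 were raised and 2, Cyp4f14 and Cyp4v3, were lowered.

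Few genes met the rule for a plateau in the reported fit. A plateau was called where the first step passed, the last did not, and the 95% interval of the last lay within a log2 fold change of -1 to 1. Lpin2, a phosphatidate phosphatase, and Dph1, an enzyme of diphthamide synthesis, met this, and 3 genes, Cyp4a10, Cyp4a14 and Fabp5, were left unresolved. A further 473 genes were called only over the whole range from vehicle to 5 mg/kg and in neither step, and are unresolved as well. For Lpin2 the first step was 1.52 ± 0.35 (adjusted p = 0.0774) on a probe other than its strongest, and the last step was -0.0063 ± 0.36. The strongest Lpin2 probe had 981, 603, 700 and 831 CPM at 0.5 mg/kg and 1042, 586, 1008 and 901 CPM at 5 mg/kg, fully overlapping. The first step of Lpin2 on its called probe had an adjusted p above 0.10 without vehicle dams 2, 3 or 4 or 0.5 mg/kg dams 1, 3 or 4, up to 0.462 without 0.5 mg/kg dam 3.

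Dph1 fell to 110, 129, 80.5 and 107 CPM at 0.5 mg/kg from a vehicle mean of 195 and stood at 115, 174, 142 and 145 CPM at 5 mg/kg. Its last step of 0.43 ± 0.19 pointed back up without passing (adjusted p = 0.521). The 95% interval of that step ran from 0.049 to 0.82, all on the upward side, so Dph1 met the rule without being shown to be level. Its first step had an adjusted p of 0.120 to 0.375 without vehicle dams 3 or 4 or 0.5 mg/kg dams 1, 3 or 4. Fabp5, a fatty acid-binding protein, had 305, 370, 375 and 277 CPM at 0.5 mg/kg and a scatter of 989, 467, 213 and 226 CPM at 5 mg/kg. The interval of its last step ran from -0.52 to 1.54, and its first-step call had an adjusted p of 0.121 to 0.365 without vehicle dams 2, 3 or 5 or any dam at 0.5 mg/kg. With the bound narrowed to 1.5-fold no gene met the plateau rule. With the bound unchanged, 25 genes met it in DESeq2 and 18 in females alone.

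The same question was asked of genes chosen in other mice, those called at 0.5 mg/kg against vehicle in sires. Of the 62 genes raised there, 13 were also called in the first step in dams, so the choices overlap. In the last step in dams 32 of the 62 (51.6%) were raised, against 0.715% of all genes tested, and none was lowered. The median log2 fold change of the 62 in dams was 0.59 in the first step and 0.91 in the last. Of the 62, 13 were not called in the last step and had an interval inside -1 to 1. Of the 44 genes lowered in sires at 0.5 mg/kg, 5 (11.4%) were lowered in the last step in dams, against 0.969% of all genes tested. None of the 44 was raised, and their medians were -0.22 and -0.16. The sires and dams shared the fit's estimate of spread.

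A second group of lipid genes was called only over the last step, which does not show that the steps differ. Mitochondrial β-oxidation gave 7 raised genes of 18 tested, none lowered, and no gene called in the first step. Its median was 0.60 in the last step and 0.38 in the first. Acadm, the medium-chain acyl-CoA dehydrogenase, had 572, 756, 446 and 629 CPM at 0.5 mg/kg and 1022, 923, 1225 and 1439 CPM at 5 mg/kg (0.94 ± 0.19, adjusted p = 0.0027). Eci1, which handles unsaturated chains, had a mean of 119 ± 15.4 CPM at 0.5 mg/kg and 265 ± 37.2 CPM at 5 mg/kg (1.15 ± 0.21, adjusted p = 0.00106). Decr1, also of unsaturated chains, rose by 0.92 ± 0.19 (adjusted p = 0.00299). In the carnitine shuttle 2 of 7 genes were raised. Cpt1b, the muscle form of the carnitine transferase, had 3.93, 2.50, 2.63 and 6.90 CPM at 0.5 mg/kg and 40.3, 31.6, 52.1 and 37.7 CPM at 5 mg/kg (3.35 ± 0.72, adjusted p = 0.00656). The liver form Cpt1a overlapped between the groups, at 12 ± 3.18 and 14.0 ± 4.51 CPM (0.22 ± 0.46, adjusted p = 1).

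**Figure D2:**
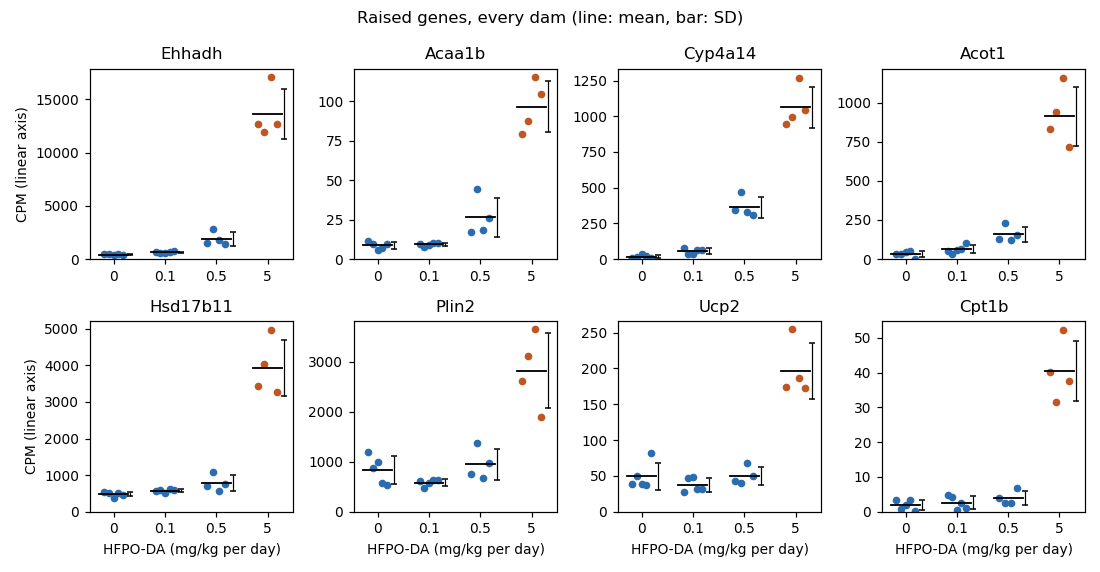
CPM on linear axes (vertical) by dose of HFPO-DA in mg/kg per day (horizontal, evenly spaced) for 8 raised genes, with a point for each of the 18 dams, a line at each group's mean and a bar of 1 SD. The 4 dams at 5 mg/kg lie above the 4 at 0.5 mg/kg in every panel.

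Fatty acid uptake and binding gave 5 raised genes of 18. Fabp3, the heart form of the binding proteins, had 0, 0, 0.74 and 0.115 CPM at 0.5 mg/kg and 12.6, 20.3, 12.7 and 24.2 CPM at 5 mg/kg (6.19 ± 1.0, adjusted p = 0.000228). Slc27a1, a fatty acid transporter, rose from 9.83, 9.61, 13.2 and 13.1 CPM to 79.4, 63.9, 59.3 and 90.2 CPM (2.68 ± 0.39, adjusted p = 2.11e-05). Fabp1 had 5088, 7313, 5226 and 5178 CPM at 0.5 mg/kg and 8828, 7768, 11142 and 10140 CPM at 5 mg/kg. Its last step of 0.73 ± 0.20 (adjusted p = 0.0514) was weak: without 0.5 mg/kg dams 1, 3 or 4 or 5 mg/kg dams 3 or 4 the adjusted p was 0.129 to 0.268. The last step of Fam213a (0.89 ± 0.23, adjusted p = 0.0358) had an adjusted p of 0.102 to 0.141 without 0.5 mg/kg dams 1, 3 or 4 or 5 mg/kg dams 2 or 3. Cd36, a fatty acid translocase, had 130 ± 24.1 and 293 ± 21.8 CPM without overlap, but its log2 fold change of 1.18 ± 0.46 did not pass (adjusted p = 0.4). It passed in females alone (adjusted p = 0.0312) and in thinned libraries (adjusted p = 0.0669).

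The promoter of Fabp1 is shown because Fabp1 was the only raised gene whose window held a DR1 pattern, 2 copies of AGGNCA with any 1 base between them, the kind of site PPARα-RXR binds. The pattern was searched on both strands in windows of 250 bases before to 50 after each gene start in RefSeq on GRCm38.p6, and 73 of the 93 raised genes had a window. It stood in 1 of these 73 (1.37%), in 1 of 100 lowered genes with a window and in 0.451% of all 27025 genes. Among the 9950 genes tested that had a window the share was 0.342%. The 250 bases before the Fabp1 start, at chr6:71199629-71199878 on the plus strand, carry the match in capitals on the opposite strand, 67 to 55 bases before the start.
Fabp1: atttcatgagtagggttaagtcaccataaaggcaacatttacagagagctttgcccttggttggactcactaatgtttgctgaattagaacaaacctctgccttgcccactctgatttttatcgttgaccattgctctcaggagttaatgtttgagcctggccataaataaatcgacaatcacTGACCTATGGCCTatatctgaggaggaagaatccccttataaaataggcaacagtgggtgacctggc
The match is a description of the sequence and was not tested as a binding site.

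Lipid droplet proteins gave 3 raised genes of 18. Hsd17b11, a droplet-bound dehydrogenase, had 701, 1084, 571 and 748 CPM at 0.5 mg/kg and 3424, 4033, 4976 and 3281 CPM at 5 mg/kg. Its last step of 2.34 ± 0.21 (adjusted p = 3.93e-10) exceeded its first of 0.70 ± 0.18, and it was the only raised gene for which the difference between the steps passed (1.64, adjusted p = 0.0423). That call had an adjusted p of 0.377 without 0.5 mg/kg dam 1, 0.482 without dam 3 and 0.412 without dam 4, of 0.101 without vehicle dam 4 and of 0.156 without 5 mg/kg dam 3. Plin2, which coats droplets, had 755, 1386, 679 and 974 CPM at 0.5 mg/kg and 2609, 3123, 3653 and 1899 CPM at 5 mg/kg (1.57 ± 0.28, adjusted p = 0.000581).

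The acyl-CoA thioesterases Acot1 and Acot2 were raised, 2 of 9 genes tested. Acot1 had 127, 227, 123 and 155 CPM at 0.5 mg/kg and 831, 943, 1160 and 717 CPM at 5 mg/kg (2.53 ± 0.48, adjusted p = 0.00154). The mitochondrial uncoupling protein Ucp2 went from 42.4, 40.2, 67.8 and 50.1 CPM to 174, 255, 186 and 173 CPM (1.97 ± 0.27, adjusted p = 9.6e-06) and stood at 49.4 CPM in vehicle dams. Ucp3 had no count in any dam at 0.5 mg/kg and 1.05, 3.10, 5.79 and 1.53 CPM at 5 mg/kg, at least 41.7-fold higher against a floor of 3 counts over the group. Its adjusted p of 0.036 was 0.109 to 0.146 without any of the 4 dams at 0.5 mg/kg and 0.123 without 5 mg/kg dam 3. Of 33 genes of oxidative phosphorylation and uncoupling, Ucp2 and Ucp3 were called. In this list 32 genes had a log2 fold change above 0, beside 6648 of all 13004 genes tested.

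Several known PPARα targets and the receptors themselves did not pass, and the call of Pdk4 was weak. Ppara had 71.3, 61.5, 48.4 and 97.6 CPM at 0.5 mg/kg and 80.5, 77.9, 76.4 and 50.5 CPM at 5 mg/kg, with an interval of -0.45 to 0.52 for the log2 fold change. Its partner Rxra had 1119 ± 112 and 973 ± 97.9 CPM (-0.20 ± 0.17, adjusted p = 1). The hormone Fgf21 was near the limit of detection, at 1.76 ± 1.33 and 2.65 ± 2.50 CPM. Ppard and Pparg also overlapped between the groups, at 12 and 9.36 CPM and at 0.803 and 1.51 CPM. The pantetheinase Vnn1 was apart, at 9.07 ± 2.59 and 33.6 ± 13.4 CPM, with a log2 fold change of 1.89 ± 0.80 (adjusted p = 0.487, and 0.0818 in females alone). Pdk4, which restrains pyruvate oxidation, had 0.983, 3.60, 1.07 and 2.64 CPM at 0.5 mg/kg and 14.2, 16.5, 70.1 and 7.83 CPM at 5 mg/kg (3.71 ± 1.07, adjusted p = 0.0847). Its call was lost without any dam except 5 mg/kg dam 4, with an adjusted p of up to 0.61 and a log2 fold change of 2.63 without 5 mg/kg dam 3.

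Other raised genes had various roles. The epoxide hydrolases Ephx1 and Ephx2 rose by 1.12 ± 0.23 (adjusted p = 0.00372) and 0.87 ± 0.17 (adjusted p = 0.00195). Aldh3a2, which oxidises fatty aldehydes, rose from 1799 ± 368 to 4223 ± 754 CPM (1.23 ± 0.25, adjusted p = 0.00299), and malic enzyme Me1 from 119 ± 17.6 to 272 ± 53.2 CPM (1.2 ± 0.27, adjusted p = 0.0122). Aqp3, a channel for water and glycerol, went from at most 0.905 CPM to 10.3, 9.03, 25.8 and 30.9 CPM (5.87 ± 1.29, adjusted p = 0.0113). Cox6b2, the testis form of a cytochrome oxidase subunit, went from at most 1.73 CPM to 16.6, 23.5, 19.1 and 16.1 CPM (4.74 ± 0.97, adjusted p = 0.00369). Csad, of taurine synthesis, went from at most 9.41 CPM to 40.1, 32, 34.6 and 15.3 CPM (2.82 ± 0.58, adjusted p = 0.00379), and Bhlhb9 from 5.2 ± 2.76 to 32.1 ± 4.35 CPM. Rims2 was called at 4.56 ± 1.33 (adjusted p = 0.0913), and its call was lost on leaving out any dam but 0.5 mg/kg dam 3, with an adjusted p of 0.108 to 0.334.

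None of the 126 lowered genes was called in the first step, and for Cyp2c67, Cyp2c69, Cyp3a16, Cyp3a41a and Cyp3a44 the log2 fold change of that step was between -0.15 and 0.19. The 32 female-biased liver genes tested gave 7 lowered and none raised, with a median log2 fold change of -0.0031 in the first step and -0.89 in the last. Cyp2c69, a female-biased P450, had 61.8, 72.4, 38.2 and 116 CPM at 0.5 mg/kg and 3.38, 1.55, 0.878 and 4.25 CPM at 5 mg/kg (-4.84 ± 0.54, adjusted p = 9.55e-08). Its neighbour Cyp2c67 had 131, 142, 82.4 and 292 CPM at 0.5 mg/kg and 20.4, 5.29, 0.878 and 8.68 CPM at 5 mg/kg (-4.21 ± 0.60, adjusted p = 1.36e-05). In both the dam groups were apart. Dam 3 was lowest in each group, and the dams so numbered are different animals. Cyp3a41a, a female-biased steroid and drug hydroxylase, had 3561, 3479, 2528 and 2932 CPM at 0.5 mg/kg and 819, 363, 780 and 936 CPM at 5 mg/kg (-2.11 ± 0.29, adjusted p = 6.81e-06). Its close copy Cyp3a41b fell by 2.10 ± 0.27 on the log2 scale, and reads of the pair may be shared. Cyp3a16 had 229, 300, 63.1 and 719 CPM at 0.5 mg/kg, a wide scatter, and 44.0, 15.2, 40.8 and 51.6 CPM at 5 mg/kg (-3.11 ± 0.54, adjusted p = 0.000413). Cyp3a44 fell by 2.79 ± 0.50 (adjusted p = 0.000581).

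**Figure D3:**
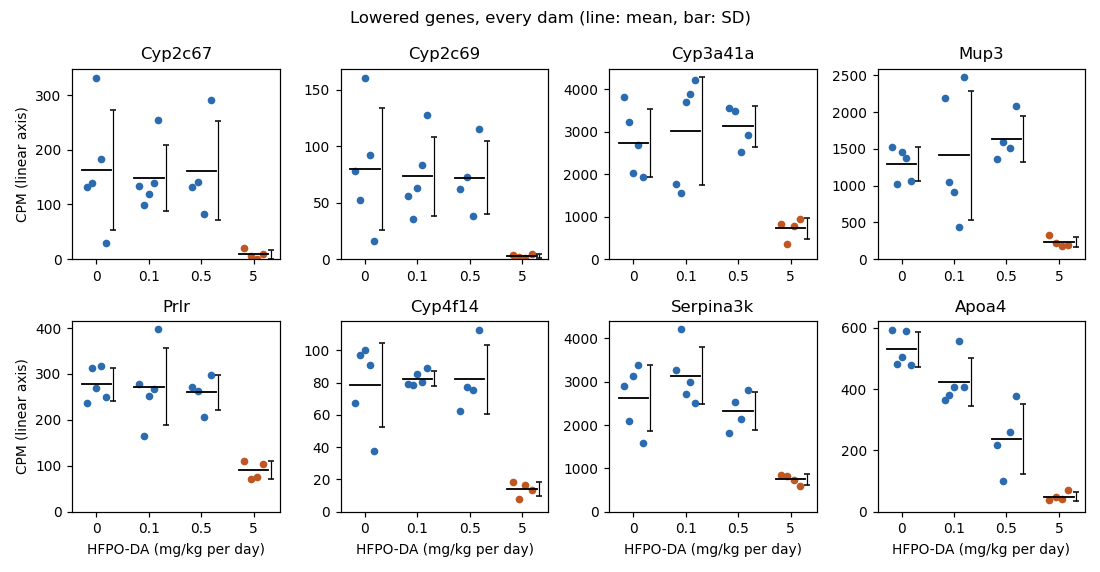
CPM on linear axes (vertical) by dose of HFPO-DA in mg/kg per day (horizontal, evenly spaced) for 8 lowered genes, with a point for each of the 18 dams, a line at each group's mean and a bar of 1 SD. The 4 dams at 5 mg/kg lie below the 4 at 0.5 mg/kg in every panel, and the Apoa4 means were 530 CPM in vehicle dams and 239 CPM at 0.5 mg/kg (adjusted p = 0.913 for that first step).

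Promoters of 4 of these P450 genes are shown because the genes moved together and shared a short motif. The pattern CAAAGTCCA, a form of the HNF4 site, was searched on both strands in the same windows. It stood in 9 of the 100 lowered genes with a window (9.0%), in none of the 73 raised genes and in 0.555% of all 27025 genes. Among the 9950 genes tested that had a window the share was 0.724%. The 9 were Cyp2c67, Cyp2c68, Cyp2c69, Cyp2c70, Cyp3a16, Cyp3a41a, Cyp3a41b, Ece1 and Pipox, so most belonged to 2 gene families whose members share ancestry. The 250 bases before each start are printed on the gene's strand, with the match in capitals. They lie at chr19:39649043-39649292 for Cyp2c67, chr19:39886770-39887019 for Cyp2c69, chr5:145469724-145469973 for Cyp3a16 and chr5:145720137-145720386 for Cyp3a41a, all on the minus strand.
Cyp2c67: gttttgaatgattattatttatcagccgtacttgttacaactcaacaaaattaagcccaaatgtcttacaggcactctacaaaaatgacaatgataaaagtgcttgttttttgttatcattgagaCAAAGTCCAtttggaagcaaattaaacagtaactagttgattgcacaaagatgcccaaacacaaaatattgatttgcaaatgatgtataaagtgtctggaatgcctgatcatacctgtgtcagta
Cyp2c69: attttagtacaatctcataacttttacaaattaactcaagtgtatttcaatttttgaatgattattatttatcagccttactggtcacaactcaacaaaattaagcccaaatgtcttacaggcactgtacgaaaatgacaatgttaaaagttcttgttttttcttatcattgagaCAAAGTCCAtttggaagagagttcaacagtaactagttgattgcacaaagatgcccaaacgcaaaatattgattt
Cyp3a16: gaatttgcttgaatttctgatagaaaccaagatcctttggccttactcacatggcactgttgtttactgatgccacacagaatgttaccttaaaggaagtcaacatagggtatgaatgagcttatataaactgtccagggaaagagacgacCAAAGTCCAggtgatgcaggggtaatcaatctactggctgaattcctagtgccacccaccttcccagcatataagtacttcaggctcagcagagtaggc
Cyp3a41a: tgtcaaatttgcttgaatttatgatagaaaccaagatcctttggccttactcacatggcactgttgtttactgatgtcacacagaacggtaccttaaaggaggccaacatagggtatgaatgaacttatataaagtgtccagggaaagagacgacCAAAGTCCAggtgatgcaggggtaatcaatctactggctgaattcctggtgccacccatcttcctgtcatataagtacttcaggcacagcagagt
Aligned on the motif without gaps, Cyp2c67 and Cyp2c69 were identical at 186 of 200 bases (93.0%) and Cyp3a16 and Cyp3a41a at 231 of 246 (93.9%). Cyp2c69 and Cyp3a41a were identical at 59 of 230 (25.7%). The STAT5 pattern TTCNNNGAA stood in 13 of 100 lowered genes (13%), in 6 of 73 raised genes (8.22%) and in 9.55% of all genes. Its share among genes tested that had a window was 8.47%.

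The difference between the steps passed for 8 genes (0.0615% of the genes tested), Hsd17b11 upward (0.00769%) and 7 downward (0.0538%). The latter included Cyp2c69, Cyp2c67, Cyp3a41a, Cyp3a41b, Mup3 and Gm10681. Mup3, a major urinary protein, had 1367, 1595, 1512 and 2086 CPM at 0.5 mg/kg and 334, 224, 174 and 192 CPM at 5 mg/kg, against 1289 CPM in vehicle dams. Its difference between the steps was -3.18 (adjusted p = 0.00264). Gm10681 went from 7.32, 40.8, 8.63 and 23.3 CPM to at most 0.615 CPM, with a difference of -6.91 (adjusted p = 0.0141). This call had an adjusted p of 0.247 without 0.5 mg/kg dam 2. The call of Cyp2c67 had an adjusted p of 0.775 without 0.5 mg/kg dam 4. That of Cyp3a41a was 0.158 and 0.118 without 0.5 mg/kg dams 1 and 2, and that of Cyp3a41b was 0.144 and 0.111 without 0.5 mg/kg dams 1 and 4.

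Of 34 male-biased genes tested, 7 were lowered and 2, Cyp4a12a and Cyp4a12b, were raised, with a median of -0.31 in the last step. The lowered ones included Mup3, Ugt2b1 (59.3 ± 9.12 to 17.9 ± 2.18 CPM, adjusted p = 1.61e-05), which conjugates steroids, Hsd11b1 (274 ± 43.5 to 114 ± 27 CPM, adjusted p = 0.000315), which regenerates corticosterone, and Egfr (222 ± 80.3 to 79.7 ± 28.8 CPM, adjusted p = 0.00588), the epidermal growth factor receptor. Of 19 genes of the growth hormone and IGF axis, 4 were lowered and none raised. Prlr, the prolactin receptor, had 271, 264, 206 and 299 CPM at 0.5 mg/kg and 110, 72.2, 76.0 and 104 CPM at 5 mg/kg (-1.52 ± 0.32, adjusted p = 0.00594). Lifr, the receptor of leukaemia inhibitory factor, fell by 1.85 ± 0.29 (adjusted p = 8.49e-05). A1bg, a female-biased secreted protein, fell by 3.0 ± 0.66 (adjusted p = 0.00759), from 1351, 2820, 896 and 3242 CPM to 530, 255, 73.4 and 182 CPM. For the female-biased repressor Cux2 the call was on a weaker probe (-2.76 ± 0.66, adjusted p = 0.0307), and its main probe had -1.96 ± 0.70 (adjusted p = 0.31, and 0.0373 in females alone).

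Over 39 xenobiotic P450s tested, 12 were lowered and none raised, with medians of -0.79 in the last step and -0.012 in the first. Cyp2c50, not listed as female-biased, fell from 60.1, 53.5, 35.6 and 59.4 CPM to 8.29, 5.75, 14.6 and 19.2 CPM (-2.12 ± 0.36, adjusted p = 0.000413). Cyp4f14, which inactivates leukotrienes and vitamin E, had 62.2, 77.3, 75.6 and 113 CPM at 0.5 mg/kg and 18.2, 7.93, 16.5 and 13.7 CPM at 5 mg/kg (-2.54 ± 0.40, adjusted p = 0.000108). The carboxylesterases Ces1c and Ces3b, which hydrolyse esters and drugs, fell by 1.41 ± 0.19 (adjusted p = 5.33e-06) and 1.53 ± 0.30 (adjusted p = 0.00185), and the steroid dehydrogenase Hsd3b2 fell by 2.46 ± 0.43 (adjusted p = 0.00049).

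Secreted proteins of the hepatocyte were lowered across several lists and never raised. The counts were 5 of 31 complement genes, 6 of 31 coagulation and fibrinolysis genes, 5 of 32 acute phase and plasma carrier genes and 4 of 22 apolipoproteins and lipases. Their medians were -0.33, -0.50, -0.43 and -0.27 in the last step and -0.077, -0.16, -0.15 and 0.026 in the first. Serpina3k, a serine protease inhibitor, had 1811, 2539, 2139 and 2800 CPM at 0.5 mg/kg and 838, 824, 729 and 585 CPM at 5 mg/kg (-1.64 ± 0.23, adjusted p = 8.02e-06). C1s1, a protease of the classical complement pathway, had 307, 375, 290 and 390 CPM and then 142, 114, 119 and 154 CPM (-1.36 ± 0.27, adjusted p = 0.00197). F7, clotting factor VII, had 171, 142, 124 and 181 CPM and then 55.7, 61.7, 58.0 and 71.0 CPM (-1.33 ± 0.23, adjusted p = 0.000383).

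Apoa4, an apolipoprotein of triglyceride-rich particles, had 219, 99.6, 259 and 378 CPM at 0.5 mg/kg and 38.4, 48.2, 40.6 and 70.2 CPM at 5 mg/kg (-2.27 ± 0.42, adjusted p = 0.00107). Apoa5 and Apoc3, which act on lipoprotein lipase, fell by 0.86 ± 0.20 (adjusted p = 0.0139) and 0.66 ± 0.16 (adjusted p = 0.018). Without 0.5 mg/kg dam 4 these calls had adjusted p values of 0.142 and 0.166.

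Among the remaining lists, urea cycle and amino acid catabolism gave 6 lowered and 1 raised of 51. Gnmt, which methylates glycine, fell from 3413 ± 637 to 1700 ± 495 CPM (-1.01 ± 0.21, adjusted p = 0.0054). The ileal-type bile acid carrier Slc10a2 fell from 35.1 ± 8.19 to 8.26 ± 3.16 CPM (-2.09 ± 0.48, adjusted p = 0.0144), among 3 lowered and none raised of 22 bile acid genes. In the list of 49 mitotic and DNA replication genes only Tk1, thymidine kinase, was called, and it fell from 47.2, 40.3, 20.3 and 72.5 CPM to 4.43, 7.66, 7.99 and 11.9 CPM (-2.49 ± 0.57, adjusted p = 0.0142). In that list 36 genes lay above 0 in the last step, beside 6648 of all 13004 genes tested. The list's medians were 0.50 in the last step and 0.13 in the first. No gene was called among 24 of cholesterol synthesis, 30 p53 targets, 31 proteasome subunits or 35 nuclear receptors and coregulators.

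Among lowered genes outside the lists, Fam19a2 had 13.7, 11.8, 11.2 and 10.9 CPM at 0.5 mg/kg and no count in any dam at 5 mg/kg, at least 170-fold lower against a floor of 3 counts over the group. Its vehicle mean was 2.16 CPM, and its adjusted p of 0.0489 was 0.102 without 0.5 mg/kg dam 1 and 0.130 to 0.185 without any of the dams at 5 mg/kg. Nat8f6 fell by 3.79 ± 1.03 (adjusted p = 0.0549) and Ugt1a10 by 2.38 ± 0.65 (adjusted p = 0.0545). Nat8f6 had an adjusted p of 0.120 to 0.222 without 0.5 mg/kg dams 2 or 4 or 5 mg/kg dams 1, 2 or 4, and Ugt1a10 of 0.121 to 0.262 without 0.5 mg/kg dams 1 or 4 or 5 mg/kg dams 1, 2 or 3.

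**Figure D4:**
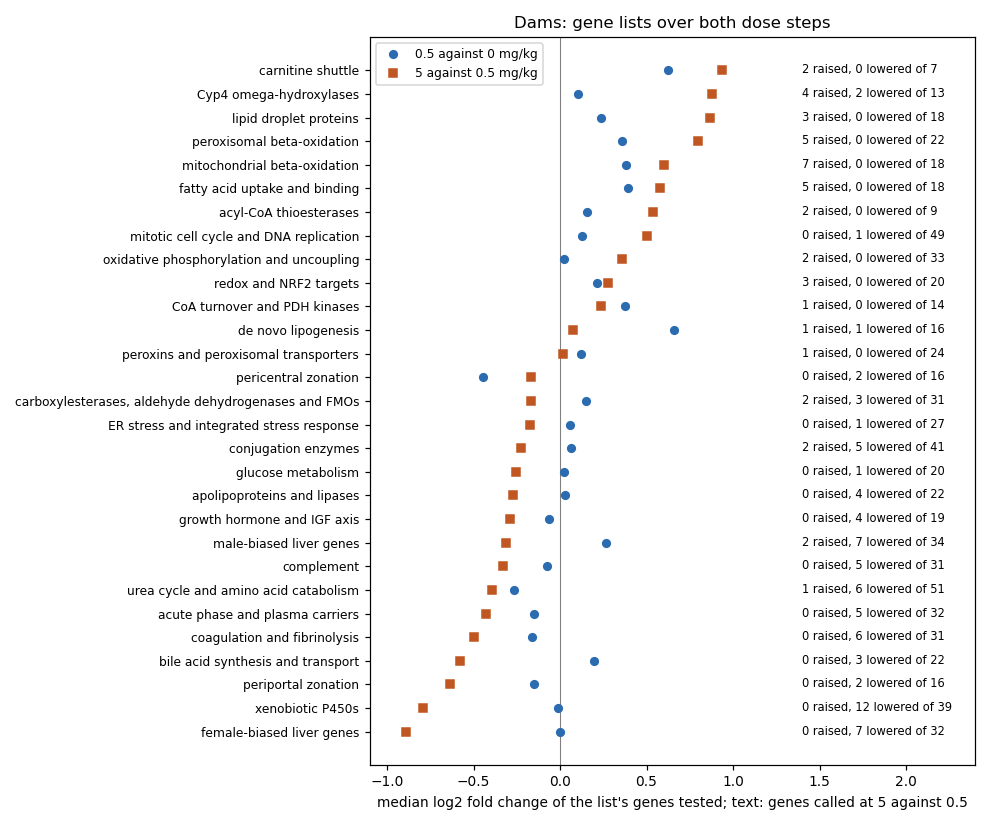
Median log2 fold change (horizontal axis) of the genes tested in each list with a gene called in the last step, lists of cell type markers left out (rows), for the first step (circles) and the last step (squares) in dams. Text at the right counts genes raised and lowered at 5 against 0.5 mg/kg. The carnitine shuttle lies at the top with a median of 0.93, and xenobiotic P450s and female-biased genes lie at the bottom at -0.79 and -0.89.

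Markers of other cell types were measured beside these results. No gene was called among 15 Kupffer cell and macrophage markers, 12 lymphocyte and granulocyte markers, 14 stellate cell and fibroblast markers, 12 endothelial, 5 cholangiocyte and 4 erythroid markers. The summed level of stellate cell and fibroblast markers was 243 to 559 CPM at 0.5 mg/kg, 390 to 1263 CPM at 5 mg/kg and 320 to 1535 CPM in vehicle dams. The summed level of adipocyte markers was 28.4 to 50.4 CPM at 0.5 mg/kg and 34.2 to 390 CPM at 5 mg/kg. Most of this was Fabp4, which had 35.5, 21.1, 30.7 and 24.8 CPM at 0.5 mg/kg and 231, 266, 20.1 and 37.6 CPM at 5 mg/kg. Only 5 mg/kg dams 1 and 2 were high, and the call (2.30 ± 0.52, adjusted p = 0.0122) had an adjusted p of 0.133 without dam 2. All 4 adipocyte markers tested lay above 0, with a median log2 fold change of 2.39. Of the 10 listed, Cfd, Lep, Retn and Ucp1 had no count at 5 mg/kg, and Cidea, Lep, Retn and Ucp1 had none at 0.5 mg/kg. Summed hepatocyte markers were 40804 to 54607 CPM at 0.5 mg/kg, 36228 to 42402 CPM at 5 mg/kg and 34452 to 51916 CPM in vehicle dams. In the last step 2 of 12 were lowered. All 12 hepatocyte markers lay below 0 in the last step, beside 6292 of all 13004 genes tested. The median log2 fold change of the 12 was -0.41. The part of these markers in the results was not tested.

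The same dose step gave 1456 called genes in sires (11.2%). The difference of the last step between dams and sires passed for 24 genes (0.185%). Cyp2c67 (-3.31 ± 0.75, adjusted p = 0.0507), Cyp2c69 (-5.46 ± 1.30, adjusted p = 0.0885) and Cyp3a41a (-1.76 ± 0.38, adjusted p = 0.0324) had a lower last step in dams than in sires, where their log2 fold changes were -0.90, 0.62 and -0.34. The mean levels of Cyp3a41a in sires were 273 and 215 CPM at the same doses, below the 725 CPM of dams at 5 mg/kg. Cyp4a12a was the reverse, at 467 and 479 CPM in sires, with a log2 fold change of 0.037 there (adjusted p = 0.995), and its last step was larger in dams by 3.54 ± 0.76 (adjusted p = 0.0317). Its dam level at 5 mg/kg, 197 CPM, stayed below that of sires.

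On the probe with most counts, the calls for Cyp2c67, Cyp2c69, Cyp3a41a and Cyp4a12a were not firm. The adjusted p was 0.207 without 0.5 mg/kg dam 4, 0.125 without 5 mg/kg dam 2 and 0.101 without 5 mg/kg dam 3 for Cyp2c67, 0.102 without 5 mg/kg dam 2 for Cyp3a41a and 0.108 without 0.5 mg/kg dam 2 for Cyp4a12a. For Cyp2c69 it was 0.101 to 0.288 on leaving out 0.5 mg/kg dams 2 or 4, 5 mg/kg dams 2 or 3, 0.5 mg/kg sires 1, 3, 4 or 5, or 5 mg/kg sires 1, 3 or 4. A second, weaker probe of Cyp4a12a kept its call without any 1 mouse of these dose groups, with an adjusted p of 0.00217 to 0.0309. Scp2, the peroxisomal sterol carrier, was raised in dams on 2 of its 4 probes, with 1.01 ± 0.19 (adjusted p = 0.00122) on the stronger of these and -0.62 in sires, and the difference passed (adjusted p = 0.00062). Its main probe had 0.44 ± 0.14 in dams (adjusted p = 0.207).

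**Figure D5:**
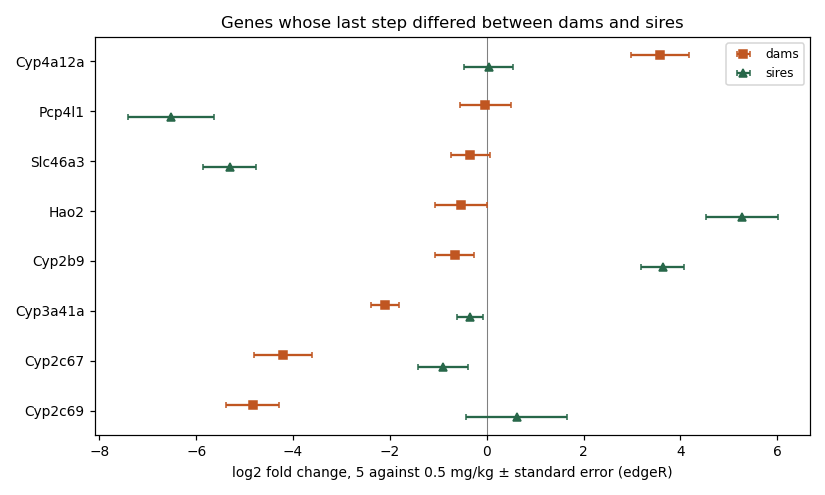
log2 fold change at 5 against 0.5 mg/kg with its standard error (horizontal axis) in dams (squares) and sires (triangles) for 8 named genes (rows) whose difference between the sexes passed on the probe with most counts. Cyp2c69 lies at -4.84 in dams and 0.62 in sires, and Cyp4a12a at 3.58 in dams and 0.04 in sires.

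Other differences came from the sires. Cyp2b9 and Hao2, both high in females, moved by -0.66 and -0.54 in dams without passing and by 3.64 and 5.27 in sires. Cyp2b9 had 156, 156, 77.9 and 138 CPM in dams at 0.5 mg/kg and 85.0, 77.2, 82.2 and 89.2 CPM at 5 mg/kg, so the dam groups overlapped in 0.5 mg/kg dam 3, and the dams' step passed in females alone (adjusted p = 0.0964). Slc46a3 and Pcp4l1 overlapped between the dam groups. In sires Slc46a3 went from 19.4 to 0.342 CPM and Pcp4l1 from 5.32 to 0.0386 CPM.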

How the data were processed

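Unstained, formalin-fixed paraffin-embedded liver sections of 37 mice were profiled with TempO-Seq. Per the labels, reads were converted with bcl2fastq 2.17.1.14 and aligned with Bowtie, and the authors deposited raw read counts for 30146 probes, after leaving out 3 mice of low depth. The genome build is not given in the sources used here. Counts were analysed with edgeR 4.0.16 (R 4.3.3), in a single quasi-likelihood fit with a mean for each of 8 groups of sex and dose, filterByExpr (18570 probes kept, 13004 genes) and TMM scaling. This joint fit takes the spread from all mice. P-values were adjusted by the Benjamini-Hochberg method over all probes, with the study's threshold of 0.10. A gene was called if any of its probes passed. Lists used the probe with most counts. Of the 924 genes in the lists, 80 stood in more than 1 list, so the counts of different lists are not separate. The fit was tested on simulated data. Motifs were searched in RefSeq windows.

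Named genes were drawn from up to 15 genes in each direction with the largest change among called probes whose groups did not overlap and whose higher group reached 10 CPM, all genes called at 0.5 mg/kg, up to 4 called genes per list (otherwise that with the smallest p), up to 6 with the smallest adjusted p in each test of a difference, and 15 genes of PPAR signalling. Genes named in lists of motif matches, of marker genes at 0 or beside a count fall outside this rule and were chosen after their values were seen. Some genes chosen by the rule are not reported here. The members and lists were chosen with earlier results of these data known. Nothing in the labels says which dams shared a litter, cage or day, so p-values measure the spread between these mice. Depth was 7952605 to 11262409 counts per library in the 8 dams, up to 13878254 in all dams and 2101495 to 10548222 in sires. Floors cover counting error only. Alternatives were DESeq2 1.42.0, its size factors, other count filters, a robust fit, females alone, summed probes, libraries thinned to the smallest total, a stricter threshold of 0.05, and fits without 1 mouse at a time.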

Additional observations from a re-analysis of the deposited data

Results flagged for a closer look

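Some values stood apart within their group of 4 dams, by Dixon's test at its 95% critical value. For normally distributed values this flags about 1 group in 20 by chance. Every named gene was tested in both dose groups, so several of the flags may be due to chance. Cyp4a12b was at 0 in all other dams at 0.5 mg/kg, so any count in the remaining dam would have been flagged. At 5 mg/kg the highest dam of Ehhadh (17070 CPM), Cyp4a31 (1970 CPM), Pdk4 (70.1 CPM) and Ucp2 (255 CPM) and the lowest of Ppara (50.5 CPM) did so. At 0.5 mg/kg the highest dam of Acaa1a (1969 CPM), Fabp1 (7313 CPM), Cyp4a12a (52.6 CPM), Cyp4a12b (2.14 CPM) and Fabp3 (0.74 CPM) and the lowest of Cyp3a41b (1858 CPM) and Hsd3b2 (36.4 CPM) did so. The high values of Acaa1a and Fabp1 were both in 0.5 mg/kg dam 2. Those of Cyp4a12a, Cyp4a12b and Fabp3 and the low value of Cyp3a41b were all in 0.5 mg/kg dam 3.

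The last step differed between dams and sires (dams minus sires, log2) for Cyp2c69 (-5.46), Cyp2c67 (-3.31), Cyp3a41a (-1.76), Cyp4a12a (3.54), Cyp2b9 (-4.30), Hao2 (-5.80), Pcp4l1 (6.50) and Slc46a3 (4.97), each with an adjusted p under the threshold in edgeR's test of the difference. For the last 4 the larger change was in sires.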

How the results depend on the processing

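In a fit of females alone 253 genes were raised and 370 lowered in the last step, and in DESeq2 190 and 220. The first step gave 30 genes with no filter on low counts, 61 in females alone and 66 in DESeq2, and 5 mg/kg against vehicle gave 682 in the reported fit, 1792 in females alone and 1065 in DESeq2. The difference between the steps gave 34 genes with no filter, 5 in a robust fit, 19 in females alone and 33 in DESeq2. Sires gave 703 genes in thinned libraries and 816 at an adjusted p of 0.05, and the difference between dams and sires gave 67 with no filter, 15 in thinned libraries and 137 in DESeq2. Plateau, still changing and unresolved genes numbered 0, 13 and 5 with the bound at 1.5-fold, 25, 37 and 4 in DESeq2, and 18, 31 and 12 in females alone. The cause of these shifts was not tested.

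Leaving out 1 mouse at a time gave 48 to 90 raised and 67 to 129 lowered genes in the last step, 13 to 24 in the first, 5 to 10 for the difference between the steps (5 without 0.5 mg/kg dam 1 or dam 4), 450 to 662 for 5 mg/kg against vehicle (450 without 5 mg/kg dam 3), and 19 to 100 for dams minus sires (47 without 0.5 mg/kg sire 2, and 55, 83 and 100 without 5 mg/kg sires 1, 2 and 4). Other scalings moved the median of all genes by less than 0.1 on the log2 scale, and no named gene with a call changed direction. Among those without a call, leaving out 1 dam turned the sign of Fabp5 (-0.14 without 5 mg/kg dam 1), Fgf21 (-0.11 without the same dam), Ppara (down to -0.11) and Pcp4l1 (up to 0.16), and the sign of Ppara also turned with summed probes and that of Pcp4l1 with thinning. Of the named genes' values under other settings, 653 kept their side of the threshold, 13 gained a call and 12 lost it. Thinning ended the calls of Serinc2, Bhlhb9, Nat8f6 and Ugt1a10 (adjusted p = 0.189, 0.18, 0.152 and 0.257), and the robust fit those of Nat8f6, Pdk4 and Rims2 (adjusted p = 0.196, 0.175 and 0.142). No paired analysis was possible because the labels number animals and no number is shared between dose groups. A step that did not pass is not shown to be a plateau.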
